A study of Mus musculus with 59 samples.

Results

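Transcripts of the PAR bZIP factors Dbp, Tef and Hlf and of the related repressor Nfil3 were measured in 3 tissues (lung, liver and forestomach) of male Muta™Mouse animals, a transgenic line with a lacZ reporter for mutation assays. The members are all array probes whose RefSeq accession belongs to one of these 4 genes: 2 probes for Dbp and 1 each for Tef, Hlf and Nfil3, so 5 of 55681 probes and 4 of 20018 gene symbols on the array. The mice, about 16 weeks old, received olive oil alone (vehicle, 0 mg/kg-bw/day) or benzo(b)fluoranthene (BbF), a polycyclic aromatic hydrocarbon, in olive oil by oral gavage for 28 days at 25 (low), 50 (medium) or 100 (high) mg/kg-bw/day. All were killed 72 h after the last dose, and the hour of the day is not given in the sources used here. A difference in that hour between dose groups therefore cannot be told apart from the dose in any change from vehicle below. The compound is named as BbF in the titles and the treatment protocol, whereas 1 label and the design description have benz(a)anthracene. Mice 1 to 5 received vehicle, 6 to 10 the low, 11 to 15 the medium and 16 to 20 the high dose, and every mouse gave 1 array per tissue apart from mouse 7, whose lung is not analysed here. This makes 59 arrays in 12 groups of 5 (4 for low-dose lung).

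DBP, TEF and HLF are transcription factors of the proline and acidic amino acid-rich (PAR) subfamily of basic leucine zipper (bZIP) proteins. They activate genes through a DNA sequence called the D-box, and their own transcripts rise and fall through the day because CLOCK and BMAL1 (the product of Arntl) and the repressors of these switch them on and off. NFIL3 (also called E4BP4) binds the same sequence as a repressor, is itself under the REV-ERB repressors, and is known besides for its part in the development of natural killer (NK) cells. In liver the PAR bZIP factors are known to control genes of drug and bile acid metabolism.

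The promoters of the 4 genes were searched for binding sequences of such regulators. RefSeq (GRCm38.p6) gives 1 promoter each for Dbp, Hlf and Nfil3 and 2 for Tef. The 250 bases before each start were searched on both strands for CACGTG (the E-box bound by CLOCK and BMAL1), TTANGTAA (D-box), TNGGTCA (the element of ROR and REV-ERB receptors) and TNGCGTG (the element of the aryl hydrocarbon receptor, which polycyclic aromatic hydrocarbons activate). No matches overlapped. The 4 stretches below, 5′ to 3′ on the gene's strand, carry some of the matches found, and capitals mark the match. The other matches are named after the stretches.
Tef, promoter 1, E-box 127 bases before the start, chr15:81802520-81802579, plus strand: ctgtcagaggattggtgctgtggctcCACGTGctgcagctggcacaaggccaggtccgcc
Tef, promoter 2, E-box 138 bases before the start, chr15:81811250-81811309, plus strand: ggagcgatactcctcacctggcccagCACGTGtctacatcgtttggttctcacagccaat
Nfil3, ROR and REV-ERB element on the opposite strand 12 bases before the start, chr13:52981040-52981099, minus strand: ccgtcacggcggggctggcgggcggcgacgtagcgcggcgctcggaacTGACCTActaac
Hlf, aryl hydrocarbon receptor element 241 bases before the start, chr11:90391108-90391167, minus strand: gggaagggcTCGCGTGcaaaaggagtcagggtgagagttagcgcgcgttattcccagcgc
The E-box stood in 6.02% of all 32851 promoter windows, the ROR and REV-ERB element in 9.19%, the aryl hydrocarbon receptor element in 4.1% and the D-box in 2.06%. Tef promoter 2 also held a ROR and REV-ERB element 219 bases and an aryl hydrocarbon receptor element 52 bases before its start, both on the opposite strand. In the Dbp promoter (chr7:45704997-45705296, plus strand) the 250 bases before the start, the part searched, held none of the 4 motifs. No member held a D-box in its searched bases.

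Each value below is log2(Cy5/Cy3), the level of a transcript in a tissue relative to reference RNA on the same array, after loess normalization. It compares samples for 1 probe and says nothing of the level of 1 gene against another. Most marker genes stood by the tissue labels. The lowest lung value of Sftpc was 6.84 and the highest in the other tissues 0.69. These values were 5.96 and 4.79 for Alb in liver and 4.76 and 4.17 for Krt13 in forestomach. Krt4, another squamous marker, overlapped, with 5.41 as its lowest value in forestomach and 5.73 as its highest elsewhere. Scgb1a1 reached 5.46 outside lung, below its lowest lung value of 7.85. In low-dose lung all 4 squamous markers were above vehicle, with a median change of 1.09, but none passed the thresholds given below. Glandular stomach markers varied widely among forestomachs, with Atp4a between -0.23 and 6.53. Tff1 was as low as 0.60 in forestomach and reached 5.04 outside it. On 1 liver slide with 8 arrays (mice 5, 6, 10, 11, 15, 18, 19 and 20) only 10.8% to 12.9% of probes were well above background, against 37.1% to 46.2% on the other 12 liver arrays, 44.8% to 68.8% in lung and 39.6% to 52.0% in forestomach. This slide is called the dim liver slide below, and the high-dose changes of the members in liver are given with and without it. The probes of Dbp and Tef were well above background on every array and no member probe was saturated, but Hlf was not well above background on any of the 8 dim liver arrays, nor Nfil3 on those of mice 10, 18 and 19.

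Dbp carried the largest change of the members and rose in lung at every dose. In lung, vehicle mice 1 to 5 had log2 ratios of -0.67, -2.29, -0.32, -0.09 and -0.95 at Dbp probe 1. The low-dose mice 6, 8, 9 and 10 had 1.12, 1.91, 0.51 and 1.89, and the medium-dose mice 1.43, 2.10, 1.99, 1.45 and 1.34. High-dose mice 16 to 20 had 1.59, 2.15, 2.45, 2.19 and 1.65. Every treated lung was above every vehicle lung. The change from vehicle was 2.22 ± 0.35 (log2, SE, n = 4 against 5; adjusted p = 0.00189) at the low, 2.52 ± 0.33 (adjusted p = 0.000324) at the medium and 2.87 ± 0.33 (adjusted p = 1.66e-05) at the high dose, each n = 5 against 5, or 4.66-, 5.76- and 7.31-fold. These and the following adjusted p-values are from limma's moderated test with Benjamini-Hochberg adjustment over all probes, and a probe is called a DEG at 0.05 or less and 1.5-fold or more. Dbp probe 2 changed by 2.17, 2.42 and 2.80 at the same doses. RNA came from whole tissue, so fewer cells of a type and less RNA per cell (or more of either) cannot be told apart.

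In forestomach the rise of Dbp was called at the high dose. Vehicle mice 1 to 5 had -1.96, -2.49, -2.15, -2.18 and -1.62 at probe 1, and low-dose mice 6 to 10 had -1.18, -1.70, -0.07, -1.63 and -0.12. Medium-dose mice 11 to 15 had -0.96, 0.67, -0.24, -0.83 and 0.13, and high-dose mice 16 to 20 had -0.67, 1.04, 1.18, 0.66 and 0.46. The medium- and high-dose forestomachs lay above all vehicle ones, whereas low-dose mice 7 and 9 lay within the vehicle range. The changes were 1.14 ± 0.38 (adjusted p = 0.976), 1.83 ± 0.38 (adjusted p = 0.528) and 2.62 ± 0.38 (adjusted p = 0.00667), the last 6.13-fold, each with n = 5 against 5. The summed log2 ratios of the 3 glandular stomach markers ranged from 3.07 to 17.54 in vehicle and from 2.31 to 16.98 in high-dose forestomachs, which overlapped, and their part in these values was not tested.

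In liver the change of Dbp was of similar size but its mice scattered more. Vehicle mice 1 to 5 had -2.10, -2.98, -0.75, -1.52 and -0.39, and low-dose mice 6 to 10 had 0.19, 0.32, 1.22, -0.79 and 2.22. Medium-dose mice 11 to 15 had 0.46, 1.79, 1.48, 0.69 and 0.16, and high-dose mice 16 to 20 had 0.50, 1.55, 1.91, 1.85 and -0.24. Low-dose mouse 9 lay within the vehicle range, and the medium- and high-dose livers were all above it. The high-dose change was 2.66 ± 0.58 (95% CI 1.45 to 3.88, n = 5 against 5), which missed the threshold over all arrays (adjusted p = 0.182). With slide as a block it was 2.62 (adjusted p = 0.0194), and without the dim liver slide it was 2.87 (adjusted p = 0.017). Under median centring in place of loess it was 0.78 (adjusted p = 0.72), and that of probe 2 was 0.69 (adjusted p = 0.742).

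**Figure D1:**
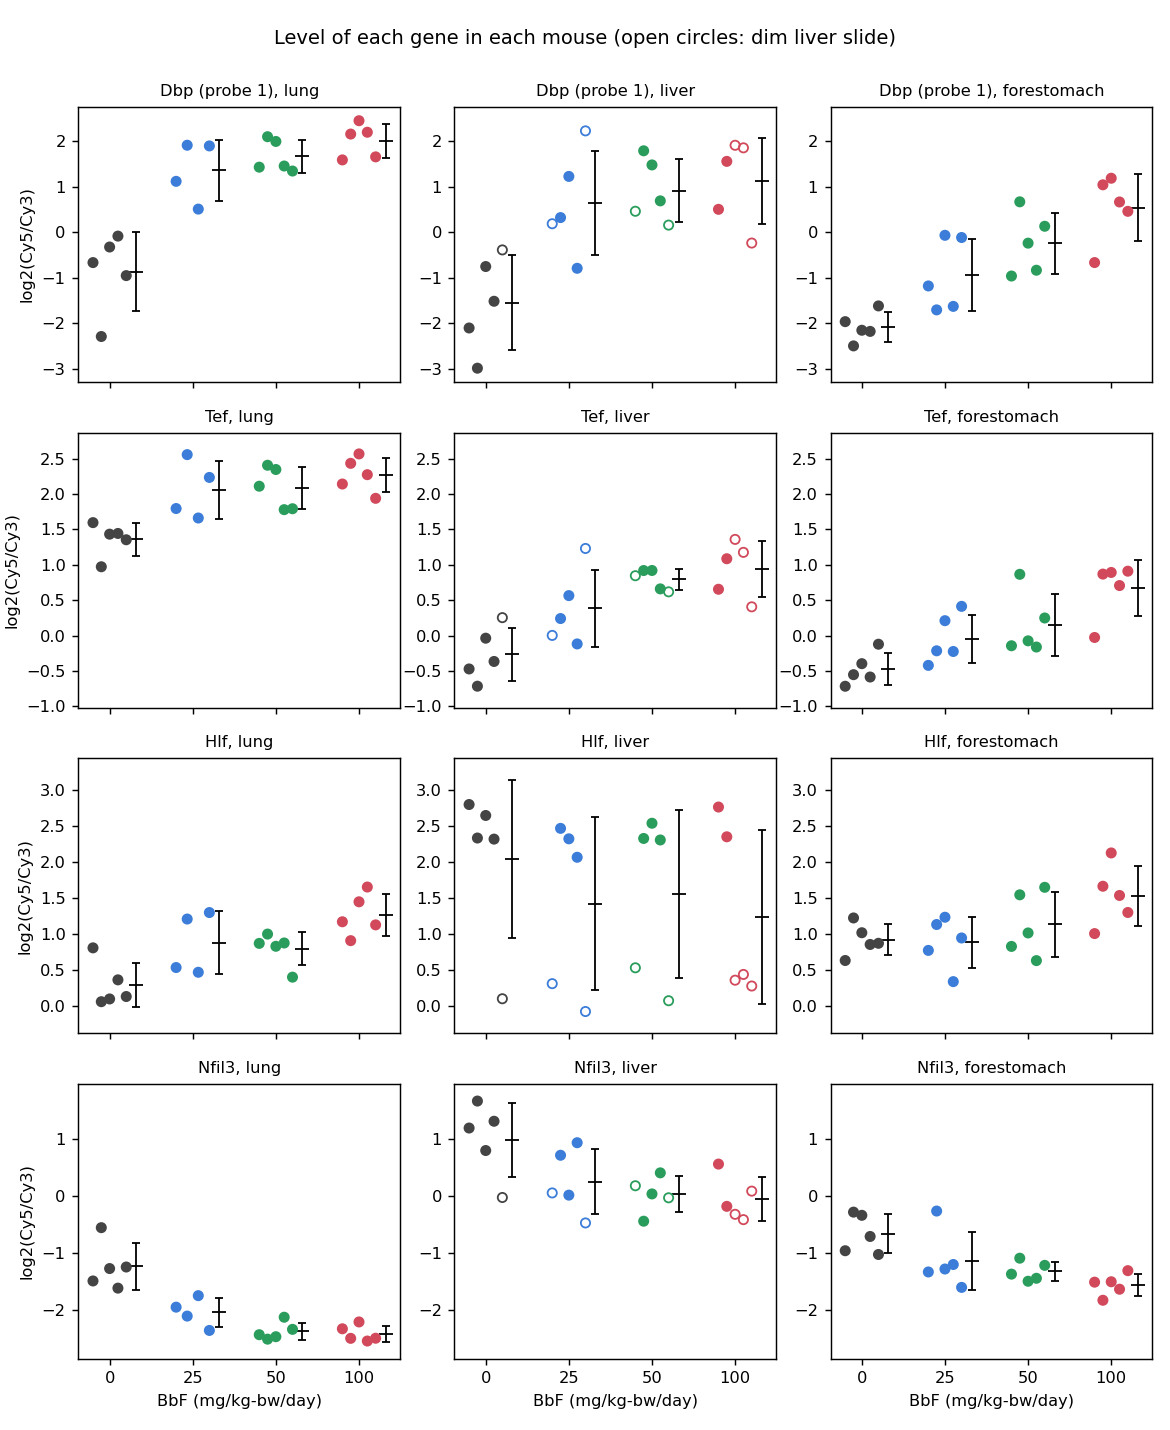
Log2(Cy5/Cy3) of Dbp probe 1, Tef, Hlf and Nfil3 in each mouse by tissue and BbF dose (mg/kg-bw/day), with the group mean ± SD beside the points (n = 5, low-dose lung 4) and open circles for the dim liver slide. Every treated lung is above the vehicle lungs for Dbp and Tef and below them for Nfil3, and Hlf in liver splits by slide, with open circles from -0.08 to 0.53 and filled ones from 2.06 to 2.79.

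Tef (thyrotroph embryonic factor), first known from the pituitary, rose less than Dbp in each tissue. Vehicle lungs of mice 1 to 5 had 1.60, 0.97, 1.43, 1.44 and 1.35, and high-dose lungs of mice 16 to 20 had 2.14, 2.43, 2.56, 2.27 and 1.94. Low-dose lungs ranged from 1.66 to 2.56 and medium-dose lungs from 1.78 to 2.40, so no treated lung overlapped with vehicle. The change was 0.70 ± 0.18 (adjusted p = 0.0817) at the low, 0.73 ± 0.17 (adjusted p = 0.0278) at the medium and 0.91 ± 0.17 (adjusted p = 0.00191) at the high dose, the last 1.88-fold. The medium-dose call was lost without mouse 2, 11, 12 or 13 (adjusted p-values from 0.0519 to 0.075), and the low-dose change was called without mouse 9 (0.84, adjusted p = 0.0428).

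In forestomach, vehicle mice had Tef values of -0.72, -0.55, -0.40, -0.59 and -0.12, and high-dose mice had -0.03, 0.87, 0.89, 0.71 and 0.91. High-dose mouse 16 stood nearest to vehicle, as it did for Dbp. The change was 1.14 ± 0.21 (adjusted p = 0.0344), and this call sat close to the threshold: it was lost when any of mice 1, 2, 3, 4, 17, 18, 19 or 20 was left out (adjusted p-values from 0.0718 to 0.126, change 1.08 to 1.16). It was also lost in the authors' processed values (1.16, adjusted p = 0.0505). In liver, vehicle mice had -0.47, -0.71, -0.04, -0.37 and 0.25, and high-dose mice 0.65, 1.08, 1.36, 1.18 and 0.41. These livers did not overlap either, and the change of 1.20 ± 0.24 (adjusted p = 0.119) was called with slide as a block (1.13, adjusted p = 0.0149), without the dim liver slide (1.27, adjusted p = 0.00462) and without mouse 5 (1.33, adjusted p = 0.0389), but turned to -0.79 under median centring in place of loess.

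Hlf (hepatic leukaemia factor), which acts on D-box genes together with DBP and TEF, was called in lung at the high dose only. Vehicle lungs had 0.80, 0.06, 0.10, 0.36 and 0.13, and high-dose lungs 1.17, 0.90, 1.44, 1.65 and 1.12, which did not overlap. The low- and medium-dose lungs (0.47 to 1.29 and 0.40 to 1.00) overlapped with vehicle mouse 1. The change was 0.58 ± 0.19 (adjusted p = 0.236), 0.50 ± 0.18 (adjusted p = 0.172) and 0.97 ± 0.18 (adjusted p = 0.00192) in order of dose, the last 1.96-fold.

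In forestomach Hlf ranged from 0.63 to 1.22 with vehicle and from 1.00 to 2.12 at the high dose, a change of 0.61 ± 0.22 (adjusted p = 0.38) with overlapping groups. In liver its values followed the slide. The 8 arrays of the dim slide, which hold mice of every dose, had -0.08 to 0.53 and the other 12 had 2.06 to 2.79. The high-dose change of -0.80 ± 0.70 (adjusted p = 0.724) over all arrays became 0.06 with slide as a block and 0.03 without the dim slide. On the other slides, vehicle livers had a mean of 2.52 (n = 4), low-dose 2.28 (n = 3), medium-dose 2.38 (n = 3) and high-dose livers 2.55 (n = 2).

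Nfil3, the repressor that competes for the D-box, changed against the PAR bZIP factors and fell in lung at every dose. Vehicle lungs of mice 1 to 5 had -1.49, -0.55, -1.27, -1.61 and -1.24. Low-dose mice 6, 8, 9 and 10 had -1.95, -2.10, -1.74 and -2.36, and high-dose mice 16 to 20 had -2.33, -2.49, -2.21, -2.54 and -2.49. Medium-dose lungs ranged from -2.51 to -2.12, and all treated lungs lay below all vehicle lungs. The change was -0.81 ± 0.16 (adjusted p = 0.0154), -1.14 ± 0.15 (adjusted p = 0.000391) and -1.18 ± 0.15 (adjusted p = 6.66e-05), the last 2.27-fold lower. The low-dose call was lost without mouse 8 (-0.78, adjusted p = 0.0555), without mouse 10 (-0.70, adjusted p = 0.0822) and under median centring (-0.52, adjusted p = 0.4).

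Forestomach Nfil3 of vehicle mice was -0.96, -0.28, -0.33, -0.70 and -1.02, and that of high-dose mice -1.51, -1.82, -1.50, -1.63 and -1.30. All high-dose forestomachs lay below all vehicle ones, but the change of -0.90 ± 0.20 missed the threshold (adjusted p = 0.0993) and was called only without low-dose mouse 7 (-0.90, adjusted p = 0.0122), whose value of -0.26 was above all vehicle values. Liver Nfil3 of vehicle mice was 1.20, 1.67, 0.80, 1.32 and -0.02, and that of high-dose mice 0.57, -0.18, -0.32, -0.41 and 0.09. Vehicle mouse 5, on the dim slide, lay among the treated livers. The high-dose change of -1.04 ± 0.30 (adjusted p = 0.405) was not called with slide as a block (-0.84, adjusted p = 0.108) or without the dim slide (-1.05, adjusted p = 0.0853), whereas the medium-dose change without that slide was -1.24 (adjusted p = 0.0302).

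**Figure D2:**
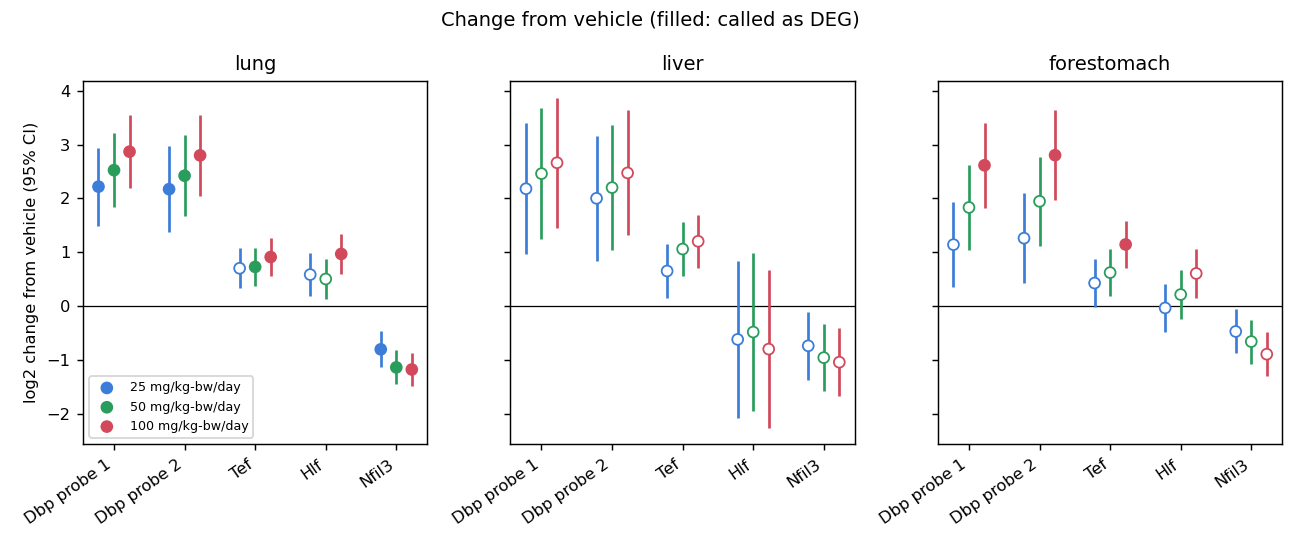
Change from vehicle on the log2 scale with its 95% CI for each member probe at the low, medium and high BbF dose in the 3 tissues, filled where the probe met an adjusted p of 0.05 or less and 1.5-fold. In lung all 5 probes are filled at the high dose, in forestomach Dbp and Tef are, and in liver none is, with intervals for Hlf from -2.26 to 0.66 at the high dose.

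Counted over the 5 member probes, 3 were called in lung at the low dose (2 up, 1 down), 4 at the medium dose (3 up, 1 down) and 5 at the high dose (4 up, 1 down). Of all 55681 probes, 0.345%, 0.469% and 1.45% were called at these doses. The trend over dose in lung was called for all 5 (1.23% of all probes), with fitted changes from vehicle to the high dose of 2.54 for Dbp probe 1, 0.80 for Tef, 0.87 for Hlf and -1.08 for Nfil3, the last not called under median centring (-0.65, adjusted p = 0.057). In forestomach 0 of 5 were called at the low and medium doses, where limma called 0% of all probes, and 3 of 5 at the high dose (0.07% of all) and for the trend (0.0611% of all), both probes of Dbp and that of Tef. At an unadjusted p under 0.05, 3 of 5 passed at the low dose (both Dbp probes and Nfil3) and 4 of 5 at the medium dose (Tef too), beside 2574 and 3161 of all probes. The trend of Tef in forestomach (1.10, adjusted p = 0.0215) was lost without mouse 1, 2, 17, 18, 19 or 20 (adjusted p-values up to 0.0959).

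In liver 0 of 5 were called at any dose or for the trend, where 0%, 0%, 0.00359% and 0.00898% of all probes were called. At an unadjusted p under 0.05, 4 of 5 passed at each dose (all but Hlf), beside 1897, 2523 and 4153 of all probes. With slide as a block, 2 of 5 were called at the medium dose (0.104% of all probes), 3 at the high dose (0.248%) and 1 for the trend (0.277%). Without the dim liver slide, 4 of 5 were called at the medium dose (0.377% of all), 3 at the high dose (0.747%) and 3 for the trend (0.885%). Dbp and Tef made up the high-dose calls in both cases. Since the slide held livers of 1 vehicle mouse and of 2, 2 and 3 mice of the rising doses, leaving it out also left only 2 high-dose mice.

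The high dose was set against the low dose to see how much of each change was there at the lowest dose, a comparison added after the values were seen. In lung Dbp probe 1 differed by 0.65 (95% CI -0.07 to 1.38, adjusted p = 0.607) and in liver by 0.48 (-0.73 to 1.70, adjusted p = 0.979). In forestomach it differed by 1.48 (0.68 to 2.27) and probe 2 by 1.54 (0.71 to 2.38), intervals above 0, but adjusted p = 0.649 for both. The interval of Tef also lay above 0 in liver (0.55, 0.06 to 1.05, adjusted p = 0.979) and in forestomach (0.72, 0.28 to 1.16, adjusted p = 0.767), as did that of Hlf in forestomach (0.64, 0.19 to 1.09, adjusted p = 0.867). The interval of Nfil3 lay below 0 in lung (-0.38, -0.71 to -0.04, adjusted p = 0.452) and in forestomach (-0.42, -0.83 to -0.01, adjusted p = 0.94). The other intervals of the members spanned 0. No member was called in any tissue, where 0.444% (lung), 0% (liver) and 0.00718% (forestomach) of all probes were.

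Whether the tissues differed in their response was tested by the difference of the high-dose changes. None of the 5 probes was called for lung minus liver (0.312% of all probes called), lung minus forestomach (0.763%) or liver minus forestomach (0.0269%). These fits did not pair the tissues of an animal, and the intervals given here are from unpaired fits. With the mouse number as a replicate block, which pairs them, no member was called either, beside 118, 443 and 7 of all probes. For Dbp probe 1 the differences were 0.21 (95% CI -1.21 to 1.63), 0.25 (-0.83 to 1.33) and 0.05 (-1.41 to 1.5). Differences of more than 2-fold either way lie within both intervals that involve liver. For lung minus forestomach the interval reaches 2-fold only with the larger change in lung. For Nfil3 they were -0.14 (-0.85 to 0.57), -0.28 (-0.81 to 0.24) and -0.15 (-0.90 to 0.60). For Hlf the change in lung exceeded that in liver by 1.77 (0.25 to 3.29, adjusted p = 0.415), with slide as a block by 0.90 (adjusted p = 0.0342, 1.29% of all probes called) and without the dim liver slide by 0.94 (0.36 to 1.51, adjusted p = 0.103). Without that slide the difference of lung minus liver was 0.0035 (-1.37 to 1.37) for Dbp probe 1, -0.36 (-0.94 to 0.22) for Tef and -0.13 (-0.79 to 0.54) for Nfil3. Liver minus forestomach was then 0.25 (-1.24 to 1.74) for Dbp probe 1, 0.12 (-0.57 to 0.81) for Tef, -0.57 (-1.25 to 0.10) for Hlf and -0.16 (-0.92 to 0.60) for Nfil3, and no member was called.

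Vehicle mice showed how the members were spread over the tissues. Tef was highest in lung, at 1.36 ± 0.23 (SD, n = 5), against -0.27 ± 0.38 in liver and -0.47 ± 0.23 in forestomach. Liver and forestomach differed by 0.21 (adjusted p = 0.576), which was not called. Nfil3 was highest in liver, at 1.00 ± 0.65, above forestomach (-0.66 ± 0.34, adjusted p = 3.63e-06) and lung (-1.23 ± 0.41, adjusted p = 2.35e-09). Dbp probe 1 ran from -0.86 ± 0.86 in lung over -1.55 ± 1.04 in liver to -2.08 ± 0.32 in forestomach. The differences between neighbours in this order were not called (adjusted p = 0.316 and adjusted p = 0.499), while lung exceeded forestomach by 1.22 (adjusted p = 0.0092). At Dbp probe 2, lung exceeded liver by 0.83 (adjusted p = 0.211) over all arrays and by 1.16 (adjusted p = 0.0333), a call, without the dim liver slide. The call for lung over forestomach at probe 1 was lost without mouse 3 (1.06, adjusted p = 0.0524) or mouse 4 (1.00, adjusted p = 0.0681), and that of Dbp probe 2 without mouse 1, 3 or 4 (adjusted p-values from 0.0535 to 0.0743).

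Hlf was 2.03 ± 1.10 in vehicle liver, 0.92 ± 0.22 in forestomach and 0.29 ± 0.31 in lung. Liver and lung differed by 1.75 (adjusted p = 0.0083), and lung lay 0.63 below forestomach (adjusted p = 0.0153), a call lost without mouse 2 (-0.49, adjusted p = 0.112), mouse 3 (-0.55, adjusted p = 0.0715) or mouse 5 (-0.60, adjusted p = 0.051). Liver minus forestomach was 1.12 (adjusted p = 0.119) over all mice, 1.60 (adjusted p = 1.46e-07) without the dim slide and 1.59 (adjusted p = 0.0261) without mouse 5. In all, 3 of 5 probes were called for lung minus liver (23.3% of all probes), 4 for lung minus forestomach (19.6%) and 1 for liver minus forestomach (18.7%). With the mouse number as a replicate block, which pairs the tissues of an animal, the counts were 4, 4 and 1, and the probe gained was Dbp probe 2 (0.83, adjusted p = 0.0142). Of all 55681 probes, 12881, 10977 and 10345 were called with this block. Under median centring none was called for lung minus liver (Tef 1.59, Hlf -1.40, Nfil3 -1.87) or liver minus forestomach (Nfil3 1.31). Of all probes, 5529 and 4181 were called in these 2 comparisons under it. Each slide held 1 tissue, so slide and tissue cannot be told apart here.

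Mice of 1 dose group differed widely in Dbp. Its SD within dose groups, at probe 1, was 0.6 in lung, 0.969 in liver and 0.659 in forestomach, wider than 99.1%, 87.7% and 96.9% of the probes well above background on all arrays of the tissue (22600, 5228 and 19654 probes). Tef (0.296, 0.391 and 0.36) and Nfil3 (0.264, 0.499 and 0.333) varied less, but in lung and forestomach each was still wider than 81.6% to 88.4% of these probes. Hlf (0.317, 1.17 and 0.369) varied less than Dbp in lung and forestomach and more in liver, where its values followed the slide. Vehicle mouse 2 had the lowest Dbp of its group in each tissue (-2.29, -2.98 and -2.49 in lung, liver and forestomach). Low-dose mouse 9 had 0.51, -0.79 and -1.63, low in its group in each tissue, while mice 8 and 10 of the same group were high in each.

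These deviations were followed across tissues as the correlation, over mice, of each mouse's deviation from its dose group mean, with a permutation test of 100000 shuffles of mice within dose groups and adjustment over the 12 relations of the family. For Dbp, lung and liver gave r = 0.784 and rho = 0.76 (19 mice; permutation p = 0.00048 and 0.0011, adjusted 0.00576 and 0.0132). Lung and forestomach gave r = 0.606 and rho = 0.614 (p = 0.00307 and 0.0108, adjusted 0.0128 and 0.0324), and liver and forestomach r = 0.666 and rho = 0.669 (20 mice; p = 0.00321 and 0.00225, adjusted 0.0128 and 0.0135). After loess normalization, a mouse high in Dbp for its dose in 1 tissue thus tended to be high in the others. Under median centring neither relation with liver passed, with r = 0.406 (adjusted p = 0.415) for lung and r = -0.133 (adjusted p = 0.609) for forestomach. Without the 2 mice farthest from the median, r stayed at 0.683, 0.575 and 0.614. Slides held partly the same mice in each tissue, and with slide as a block r was 0.778 (adjusted p = 0.00348), 0.605 (0.021) and 0.569 (0.0536, which no longer passed).

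For Tef, lung and liver gave r = 0.671 and rho = 0.639 (permutation p = 0.0079 and 0.00996, adjusted 0.0224 and 0.0324). Liver and forestomach gave r = 0.56 and rho = 0.532 (p = 0.00934 and 0.0213, adjusted 0.0224 and 0.0512), and lung and forestomach r = 0.418 and rho = 0.354 (p = 0.12 and 0.195, adjusted 0.181 and 0.259). Without the 2 farthest mice r was 0.66, 0.412 and 0.368, and with slide as a block 0.794 (adjusted p = 0.00828), 0.535 (0.0541) and 0.653 (0.021). The call for lung with liver was lost without mouse 2, 9 or 20 (r from 0.608 to 0.627) and that for liver with forestomach without mouse 5, 8, 9 or 10 (r from 0.462 to 0.552). Under median centring Tef gave r = 0.286 for lung with liver and -0.427 for liver with forestomach. Nfil3 gave r = 0.467, 0.489 and 0.452 and rho = 0.391, 0.398 and 0.388 for lung with liver, lung with forestomach and liver with forestomach (permutation p of r 0.138, 0.118 and 0.118 and of rho 0.152, 0.152 and 0.143, adjusted 0.184, 0.181 and 0.181 and 0.228 each). The first and second of these rested on mice 2 and 9, without which r was 0.134 and 0.224. Hlf gave r = 0.0358, 0.0704 and -0.191 and rho = 0.0246, 0.0281 and -0.0842 (permutation p from 0.462 to 0.931, adjusted 0.555 to 0.931).

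**Figure D3:**
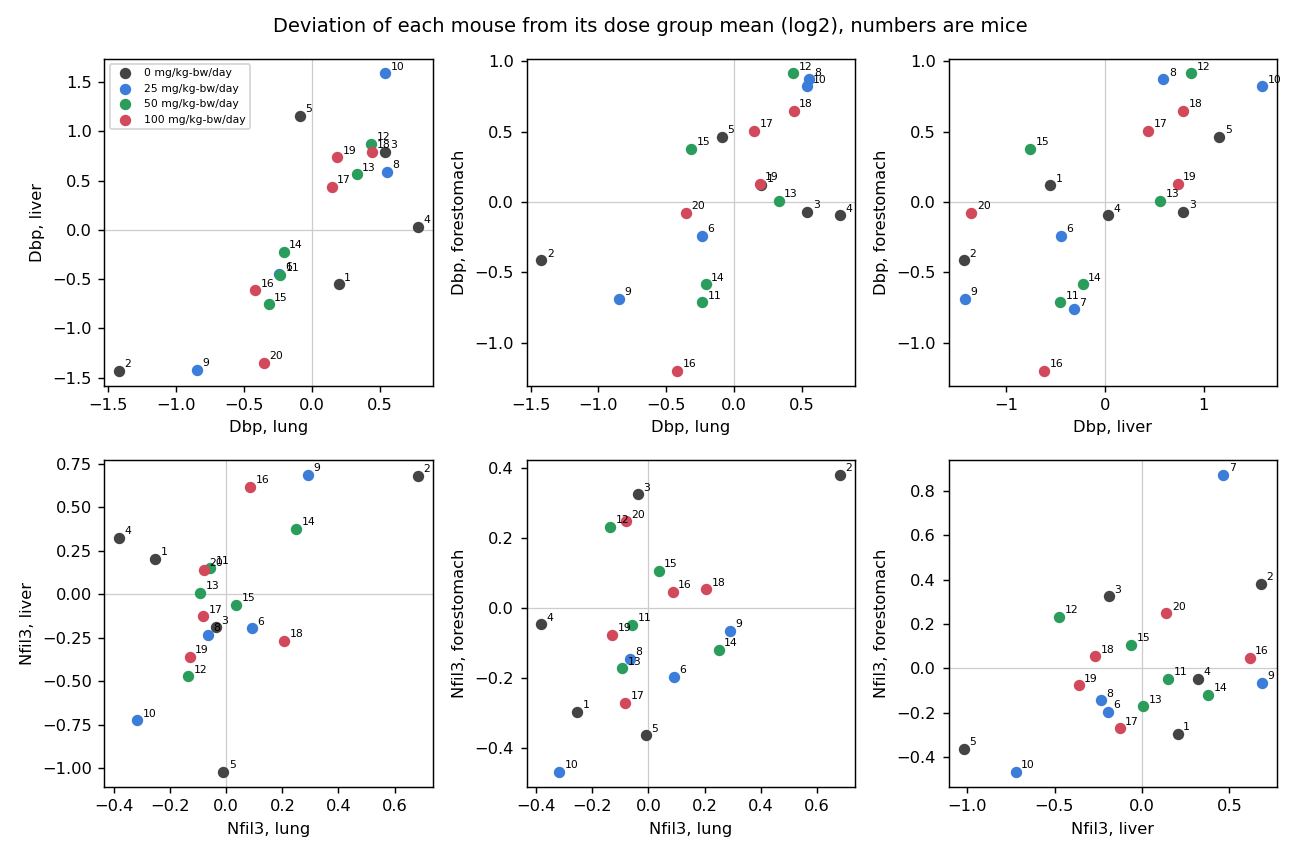
Deviation of each mouse from the mean of its dose group (log2) in 1 tissue against another, for Dbp in the upper row and Nfil3 in the lower, coloured by BbF dose and numbered by mouse. For Dbp the points rise from mice 2 and 9 at the lower left to mice 8, 10 and 12 at the upper right (r = 0.784, 0.606 and 0.666). Mouse 4 is highest in lung (0.78) but at 0.03 in liver and -0.10 in forestomach, and mouse 16 is lowest in forestomach (-1.2). For Nfil3 the points are more scattered (r = 0.467, 0.489 and 0.452).

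Within a tissue, Tef followed Dbp mouse by mouse and Nfil3 ran against it. Dbp with Tef gave r = 0.817, 0.942 and 0.861 and rho = 0.837, 0.923 and 0.815 in lung, liver and forestomach (permutation p of r 6e-05, 1e-05 and 0.00032, adjusted 0.00024, 0.00012 and 0.000566, and of rho 8e-05, 1e-05 and 0.00057, adjusted 0.00044, 0.00012 and 0.000977), where 1e-05 is the smallest p that the shuffles can give. Without the 2 farthest mice r was 0.783, 0.933 and 0.793. Dbp with Nfil3 gave r = -0.802, -0.82 and -0.369 and rho = -0.644, -0.823 and -0.344 (permutation p of r 0.00381, 0.00014 and 0.157, adjusted 0.00571, 0.000336 and 0.172, and of rho 0.0109, 0.00011 and 0.145, adjusted 0.0145, 0.00044 and 0.158). Without the farthest mice r was -0.548, -0.754 and -0.513. Under median centring in place of loess, r in liver turned to 0.852 for Nfil3 and 0.791 for Arntl, described next. In lung it was -0.347 (adjusted p = 0.231) for Nfil3 and -0.445 (adjusted p = 0.112) for Arntl, neither past the threshold, and in forestomach -0.565 (adjusted p = 0.0301) for Nfil3, now past it. After loess, the relation with Nfil3 in lung lost its call without mouse 2 alone (r = -0.60, adjusted p = 0.0541).

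Dbp with Hlf gave r = 0.566, -0.164 and 0.66 and rho = 0.584, -0.117 and 0.639 in lung, liver and forestomach (permutation p of r 0.0373, 0.525 and 0.0086, adjusted 0.0448, 0.525 and 0.0115, and of rho 0.032, 0.639 and 0.0105, adjusted 0.0384, 0.639 and 0.0145). Without the farthest mice r was 0.496, -0.0122 and 0.55. The lung relation was lost when any of 13 mice was left out (adjusted p up to 0.104), and with slide as a block it was 0.607 (adjusted p = 0.029). Dbp with Arntl, the activator of the core loop, gave r = -0.849, -0.786 and -0.862 and rho = -0.863, -0.803 and -0.832 (permutation p of r 6e-05, 0.00033 and 0.00011, adjusted 0.00024, 0.000566 and 0.00033, and of rho 0.00015, 0.0002 and 0.00028, adjusted 0.00045, 0.00048 and 0.00056). Without the farthest mice these were -0.808, -0.709 and -0.794. With slide as a block, Dbp with Tef (0.827, 0.95 and 0.853), Dbp with Nfil3 (-0.857, -0.899 and -0.345) and Dbp with Arntl (-0.859, -0.827 and -0.835) were on the same side of the threshold. Both genes of a pair were read from 1 array in each mouse, so errors of an array are shared between them.

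**Figure D4:**
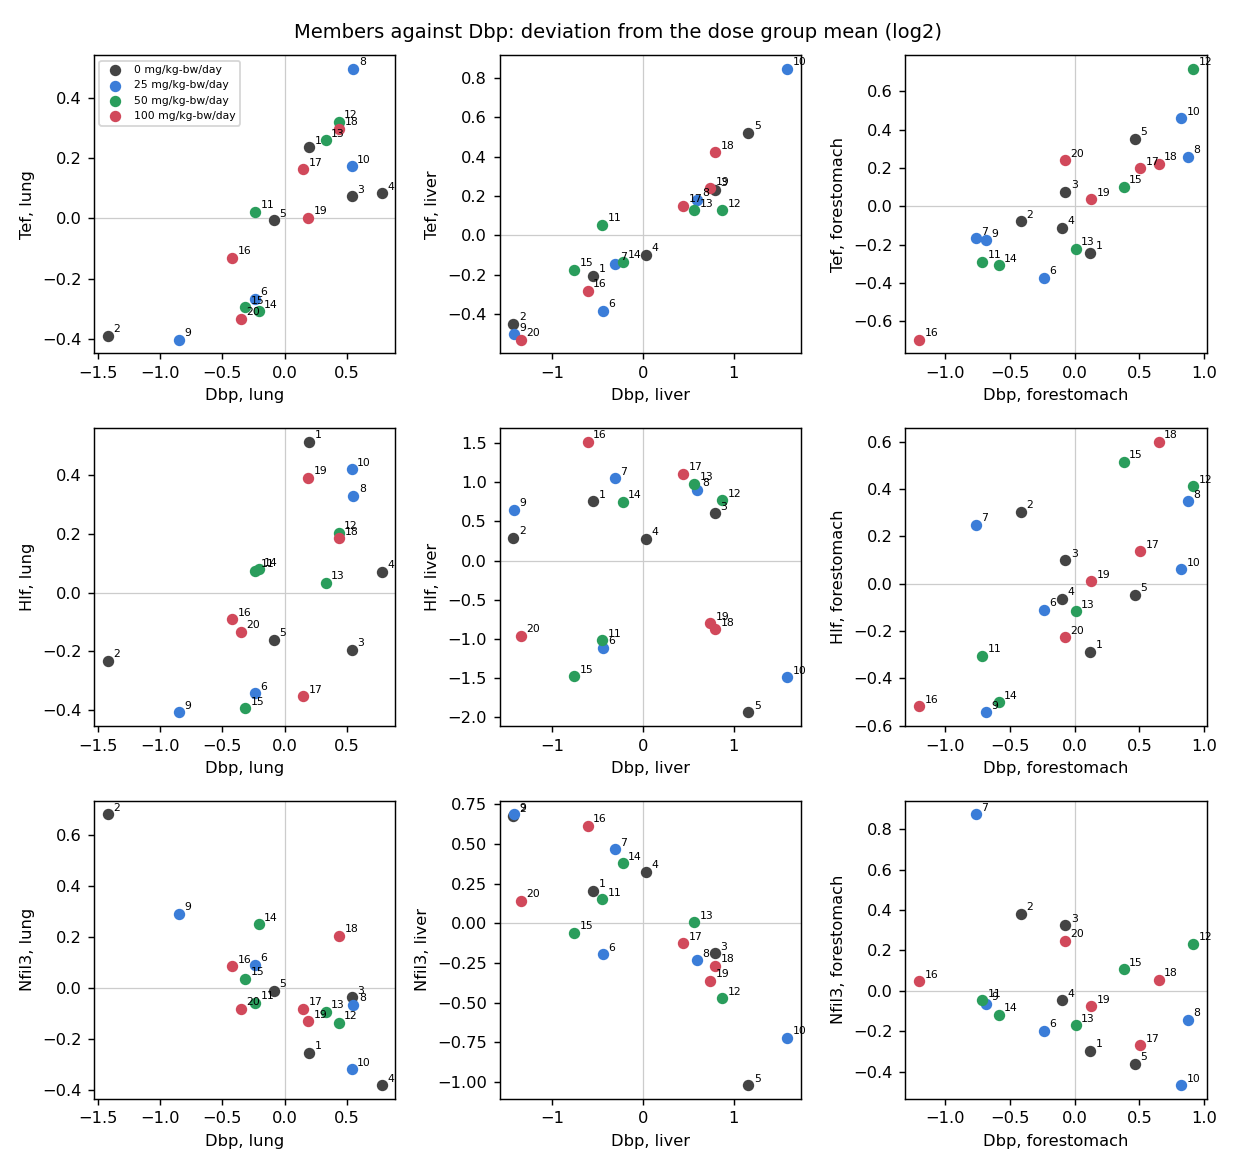
Deviation of Tef, Hlf and Nfil3 from the dose group mean (log2) against that of Dbp in the same array, by tissue, coloured by BbF dose and numbered by mouse. Tef rises with Dbp in each tissue (r = 0.817, 0.942 and 0.861), Nfil3 falls in lung and liver (r = -0.802 and -0.82), and Hlf in liver lies in separate bands by slide (r = -0.164).

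The genes whose pattern was most like each member were found by Pearson's r over the 59 arrays, centred on the tissue mean, among 16395 probes with a symbol that were well above background on at least 30 of the arrays. These arrays share dose groups, mice and slides, and the values are a description. For Dbp the highest were Tef (0.936), Nr1d2 (0.724), Bhlhe40 (0.708), Per3 (0.704) and Tspan4 (0.676), and the lowest were Arntl (-0.896), Nfil3 (-0.882) and Fgfr1op2 (-0.806). For Nfil3 the highest were Arntl (0.85), Fgfr1op2 (0.741), Bag3 (0.738), Clock (0.717) and Ube2g2 (0.697), and the lowest Dbp (-0.882), Tef (-0.787) and Inpp5k (-0.737). Tef was nearest to Dbp (0.938), then Slc5a6 (0.748), Per3 (0.721), Glce (0.71) and Bclaf1 (0.707), and farthest from Arntl (-0.852), Nfil3 (-0.787) and Fgfr1op2 (-0.76).

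The dim liver slide entered these lists. Over the 51 arrays without it, Dbp was nearest to Tef (0.941), Nr1d2 (0.921), Nr1d1 (0.884), Trp53inp1 (0.809) and Fbxl20 (0.758), and Tef to Dbp (0.951), Nr1d2 (0.904), Nr1d1 (0.863), Cry2 (0.824) and Dcaf8 (0.789). Nr1d1 and Nr1d2 encode the REV-ERB repressors. The genes nearest to Hlf over all arrays were Gphn (0.901), 1600014C10Rik, Lactb, Tmem19 and Ttc38, and the farthest Arhgap22 (-0.905), Pygb and Atp5b. Without the slide they were Tspan4 (0.796), Per2 (0.676), Ephx1 (0.668), Cd200 (0.659) and Sord (0.657), and Arntl (-0.668), Uqcrfs1 and Sft2d2. For Nfil3 without the slide, Arntl (0.834) was still nearest and Dbp (-0.9) farthest, with Nr1d2 (-0.825) next.

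The regulators that surround these genes in the clock were described as lists, each gene by its brightest probe. At the high dose in lung, 1 of 5 clock activators fell, Arntl by 1.75 (adjusted p = 6.12e-05), and Clock changed by -0.54, short of 1.5-fold. Of 8 clock repressors 5 rose: Per2 (1.16), Per3 (0.82), Nr1d1 (0.72), Nr1d2 (0.94) and Ciart (0.92), while Per1 was 0.67 (adjusted p = 0.4), Cry1 -0.02 and Cry2 0.15. The median change was -0.29 for the activators and 0.77 for the repressors, beside 0.00 over all probes. Of 4 other E-box genes Wee1 rose (0.71) and Bhlhe40 was 0.58 (adjusted p = 0.0138, short of 1.5-fold). In forestomach Arntl fell by 0.93 (adjusted p = 0.00646) and Nr1d2 rose by 1.28 (adjusted p = 0.00771), and no other gene of these lists was called. In liver none of the 17 was called, with Arntl at -0.91 (adjusted p = 0.493), Usp2 at 1.09 (adjusted p = 0.26) and Per1 at 1.13 (adjusted p = 0.603). Arntl was well above background on 4 of 5 vehicle and 2 of 5 high-dose liver arrays. The lists in liver were also set out by slide, a choice made after the values were seen. With slide as a block none of the 17 was called in liver either, whereas without the dim liver slide 3 of the 4 other E-box genes were, namely Usp2 (1.5, adjusted p = 0.0182), Bhlhe40 (1.16, adjusted p = 0.0154) and Wee1 (1.07, adjusted p = 0.0468). The median of the clock activators in liver was -0.84 over all arrays and -0.18 without that slide, and that of the repressors 0.14 and 0.48.

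The genes that DBP, TEF and HLF are known to drive in metabolism were examined beside them. Of 11 listed, 10 were on the array (not Cyp2a5). At the high dose 1 of 10 rose in lung, Abcb1a, which encodes a drug efflux pump, by 0.74 (adjusted p = 0.00924), with a list median of -0.01. The oxidoreductase gene Por was -0.06, Alas1 of haem synthesis -0.11 and the nuclear receptor gene Nr1i3 -0.05 in lung. None was called in liver (median -0.23) or forestomach (median 0.02). In liver Por was 0.86 (adjusted p = 0.486), whereas Cyp7a1, the rate-limiting enzyme of bile acid synthesis, was -0.76 ± 1.34 (SE) and Cyp3a11 -0.95 ± 1.42, with intervals that span several-fold changes in both directions. Without the dim liver slide both lay above 0, at 1.10 (adjusted p = 0.409) and 0.87 (adjusted p = 0.384), the list median was 0.71, and no gene of the list was called. None of the 4 C/EBP relatives and none of the 6 glucocorticoid targets was called in any tissue at the high dose, with medians from -0.22 to 0.00 and from -0.03 to 0.59. In liver without the dim slide the glucocorticoid target Dusp1 was called (0.68, adjusted p = 0.0418).

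**Figure D5:**
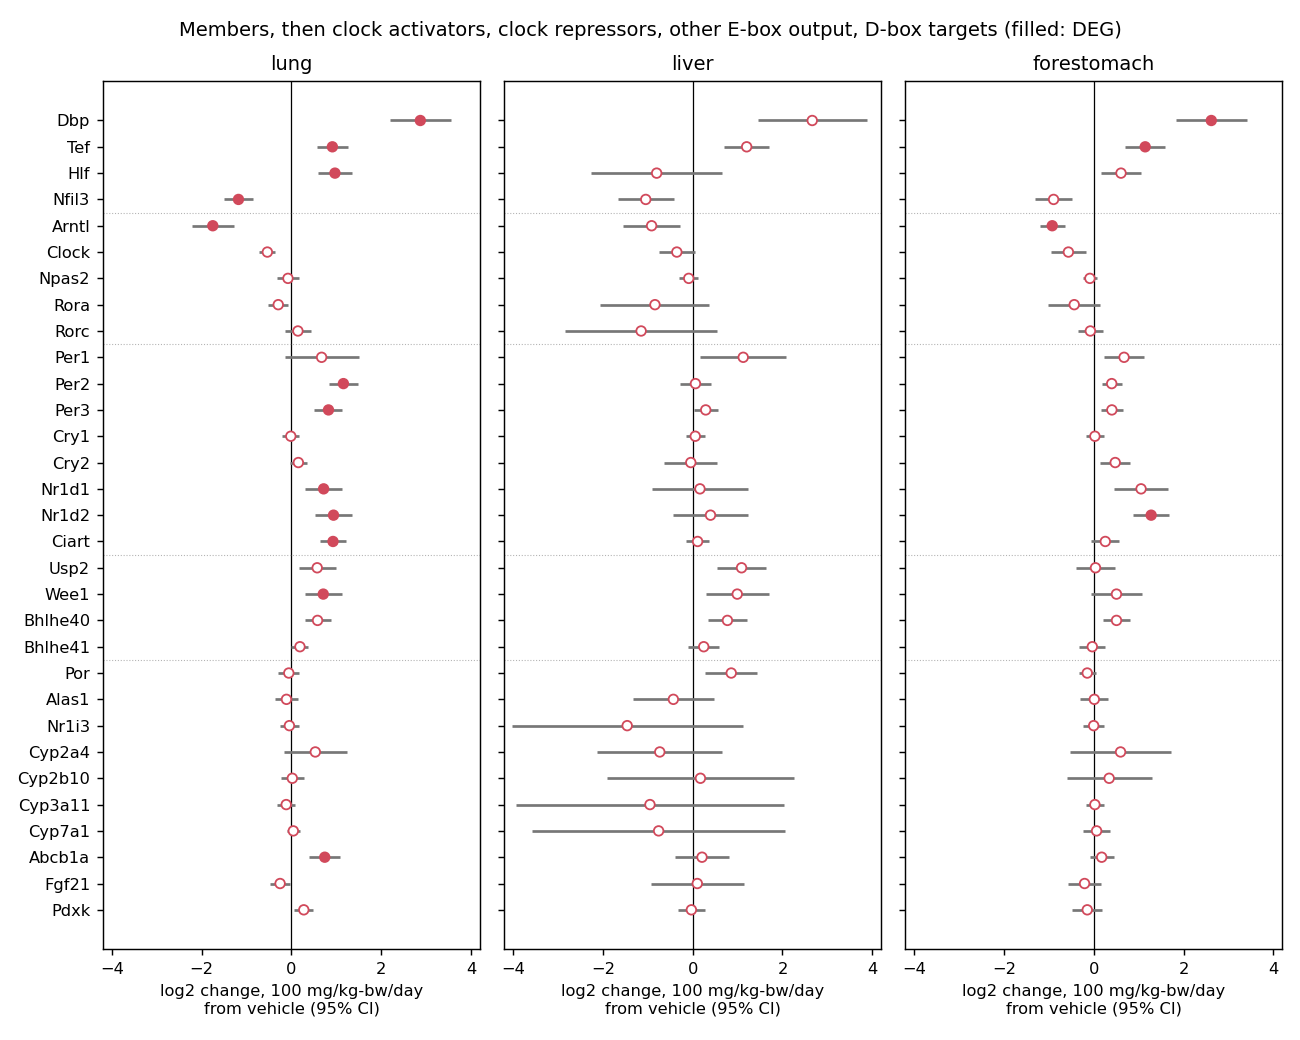
Log2 change at 100 mg/kg-bw/day from vehicle with its 95% CI for the members (Dbp by probe 1), 5 clock activators, 8 clock repressors, 4 other E-box genes and 10 D-box targets in lung, liver and forestomach, filled where called. Filled points are Dbp, Tef, Hlf, Nfil3, Arntl, Per2, Per3, Nr1d1, Nr1d2, Ciart, Wee1 and Abcb1a in lung and Dbp, Tef, Arntl and Nr1d2 in forestomach, and none in liver.

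Markers of some other cells moved in lung together with the members. None of the lung epithelial, smooth muscle or squamous markers was called there at the high dose, with median changes of 0.02, -0.18 and -0.03. All 6 NK cell markers were lower at the high dose (median -0.66) and 3 were called, the granzyme gene Gzma (-2.69, adjusted p = 0.00313), Klrb1c (-0.75) and Ncr1 (-0.74). Their summed log2 ratios ranged from 7.50 to 13.01 in vehicle, 6.77 to 9.92 in low-dose, 4.13 to 10.44 in medium-dose and 2.57 to 7.48 in high-dose lungs. Among leukocyte markers the neutrophil gene S100a8 rose (1.20, adjusted p = 0.0401), while S100a9 was 0.74 (adjusted p = 0.0881), Ptprc 0.16 (adjusted p = 0.68) and Cd3e 0.12 (adjusted p = 0.619). Of 3 endothelial markers Cdh5 (0.82) and Pecam1 (0.74) rose and Vwf was -0.21, with sums from 15.35 to 16.38 in vehicle and 16.55 to 17.55 in high-dose lungs. In liver S100a9 was 0.75 (adjusted p = 0.769) over all arrays and was called with slide as a block (1.95, adjusted p = 0.000967) and without the dim slide (2.28, adjusted p = 0.0033), and Cdh5 without that slide alone (0.83, adjusted p = 0.00352). The part of these markers in the change of Dbp, Tef, Hlf and Nfil3 was not tested. In forestomach none of the NK cell, endothelial or smooth muscle markers, S100a8, S100a9, Ptprc or Cd3e was called at the high dose.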

How the data were processed

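RNA from each tissue (Cy5) was hybridized by the authors with universal mouse reference RNA (Cy3) to Agilent SurePrint G3 arrays, with no dye swap. The deposited scanner files hold the raw intensity of each spot and its background from Feature Extraction 10.7.3.1, and the authors also deposited processed log2 ratios of the same arrays, normalized by LOWESS. Here median intensities without background correction were normalized within arrays by loess (limma 3.58.1, R 4.3.3), control and non-uniform spots were left out, and spots of a probe were averaged. Array accessions were named through RefSeq (GRCm38.p6; 26413 of 55681 probes), whereas the array files use mm9. Precision is limited by the number of arrays.

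Each tissue was fitted with its 4 dose groups in limma, per probe, all p-values being 2-sided, and a DEG needed FDR P of 0.05 or less and 1.5-fold. The study's Fs statistic was not run. By it the study listed both Dbp probes as DEGs in forestomach at the medium dose too, and more liver DEGs at each dose than were called here. Alternatives were median centring, normexp with offset 50 (on median signals, the mean not being in the files), the processed table, probes above background, slide as a block, no dim liver slide, the mouse number as a block and leaving out each mouse. A mouse number marks 1 animal in the labels; over all probes, its deviations in 2 tissues correlated with medians of -0.0311, 0.0345 and 0.0312. The fits were tested on simulated data. The named genes are the members, genes of fixed lists by their brightest probe, and for each member the 5 symbols with the highest and the 3 with the lowest r. Members and lists were chosen with earlier results of these data known. No column was left unmatched. The level of 1 leukocyte marker, and sums and counts that include it, are not reported here.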

Additional observations from a re-analysis of the deposited data

Results flagged for a closer look

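Of 60 sets of 1 probe in 1 dose group of 1 tissue with 4 or 5 mice, 4 held a mouse far from the rest by Dixon's criterion, which chance alone passes in about 1 of 20 sets. Dbp probe 2 in vehicle forestomach was -1.06 in mouse 5 and from -2.37 to -2.01 in the other mice. Hlf in vehicle liver was 0.10 in mouse 5, whose array was on the dim liver slide, and from 2.31 to 2.79 in the others. Hlf in medium-dose lung was 0.40 in mouse 15 and from 0.83 to 1.00 in the others. Tef in high-dose forestomach was -0.027 in mouse 16 and from 0.71 to 0.91 in the others, and without this mouse the high-dose change of Tef was 1.32 beside 1.14 with it.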

How the results depend on the processing

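Each dose change and each difference between tissues was recomputed under the alternatives, and 452 of these values kept direction and side of the threshold, 24 passed it newly, 8 lost it and 17 changed sign, against 1748, 6, 28 and 18 of those made by leaving out 1 mouse. In liver, slide as a block called 2, 3 and 1 of 5 probes (medium dose, high dose, trend) in place of 0, no dim slide 4, 3 and 3, and probes above background alone 2 (high dose) and 1 (trend). Shares over all probes are given above for slide as a block and no dim slide, and none was set beside the last setting. Hlf in liver turned from below to above 0 with slide as a block (0.060 high dose, 0.11 trend) and without the dim slide (0.033 and 0.041). Slide as a block also called 1 probe (Hlf) for the high-dose effect of lung minus liver and turned small differences for Dbp probe 2 in lung minus forestomach (0.11; 0.034 in the authors' processed values) and Tef (-0.011) and Nfil3 (0.056) in liver minus forestomach. Without the dim slide 2 probes were called in vehicle liver minus forestomach, beside 12174 of all probes.

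Median centring in place of loess moved the median change of all probes by at most 0.0597 in any comparison. Both methods centre each array, so this shift was bound to be small and is no measure of their likeness. The calls over all probes differed more. In lung at the high dose they went from 807 (575 up, 232 down) to 3504 (3467 up, 37 down), and in vehicle lung minus liver from 12990 to 5529. Median centring turned Tef in liver to -0.24 (low), -0.79 (high) and -0.73 (trend), Hlf in low-dose forestomach to 0.10, the high-dose differences of Tef (2.12) and Nfil3 (1.72) for lung minus liver and of Dbp probe 1 (-2.09) and Tef (-2.25) for liver minus forestomach, and vehicle Tef in liver minus forestomach to -0.15. It called 0 of 5 probes in vehicle lung minus liver (5529 of all probes) and vehicle liver minus forestomach (4181 of all), and called Tef at the low dose in lung (0.93). Correlations under it were 0.406 (Dbp, lung with liver), -0.133 (Dbp, liver with forestomach), 0.286 (Tef, lung with liver), -0.427 (Tef, liver with forestomach), -0.347 and -0.445 (Dbp with Nfil3 and with Arntl, lung), 0.914, 0.852 and 0.791 (Dbp with Hlf, Nfil3 and Arntl, liver, all 3 with the sign changed) and -0.565 (Dbp with Nfil3, forestomach, now past the threshold). With slide as a block they were 0.569 (Dbp) and 0.535 (Tef) for liver with forestomach, both no longer past it, and 0.653 for Tef in lung with forestomach, now past it. The causes were not tested.

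With 1 mouse left out at a time, called probes ranged from 0 to 1 in liver at the high dose (1 without mouse 5), from 1 to 4 in vehicle lung minus forestomach (1 without mouse 3, 2 without mouse 4) and from 1 to 2 in vehicle liver minus forestomach (2 without mouse 5). Counts over all probes were not set beside these. Values that crossed 0 ranged from -0.21 to 0.37 (Dbp probe 1, liver minus forestomach), -0.11 to 0.39 and -0.041 to 0.58 (Dbp probes 1 and 2, lung minus liver), -0.25 to 0.21 (Dbp probe 2, lung minus forestomach), -0.31 to 0.11 (Nfil3, lung minus liver), -0.045 to 0.25 (Tef, liver minus forestomach) and -0.12 to 0.10 (Hlf, low-dose forestomach). Correlations ranged from -0.0908 to 0.248 and -0.110 to 0.184 (Hlf, lung with forestomach and with liver), 0.284 to 0.611 (Nfil3, lung with liver), 0.608 to 0.732 and 0.462 to 0.693 (Tef, lung and forestomach with liver), 0.483 to 0.644 (Dbp with Hlf, lung) and -0.892 to -0.599 (Dbp with Nfil3, lung).

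With the mouse number as a replicate block, the pairing of an animal's tissues, 4, 4 and 1 probes were called in vehicle lung minus liver, lung minus forestomach and liver minus forestomach and 0 for each high-dose difference, and no call changed but that of Dbp probe 2 (0.83). Of all probes, 12881, 10977 and 10345 were called for the vehicle differences and 118, 443 and 7 for the high-dose ones. Liver values are limited by the dim slide, where Hlf was near background.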
